A study of Homo sapiens with 24 samples.

Results

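NRF2 (encoded by NFE2L2) is the transcription factor that switches on the antioxidant and detoxifying genes of the cell. Under low stress it is bound by KEAP1 and handed to a CUL3 ubiquitin ligase for degradation, and when reactive molecules modify KEAP1 it escapes, pairs with a small MAF protein and binds the antioxidant response element near its target genes. BACH1 competes for the same elements as a repressor. The genes described here are 9 well-known NRF2 targets, chosen by name: NQO1, HMOX1, GCLC, GCLM, TXNRD1, SRXN1, SLC7A11, AKR1C1 and AKR1B10. All 9 were found among the 58174 genes listed for each of the 4 cell lines. The rule that chose them names genes and uses no value, but it was set with earlier results of these data known.

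The values come from sequencing of total RNA, depleted of ribosomal RNA, in A549, ES2, MV3 and PANC1 cells. A549 derives from a lung adenocarcinoma and is known for a defective KEAP1 and constitutively active NRF2, ES2 from an ovarian carcinoma, MV3 from an amelanotic melanoma and PANC1 from a pancreatic ductal adenocarcinoma. Each line received either control siRNA (siC) or an siRNA pool that targets IGF2BP1 (siI1), an oncofetal RNA-binding protein that protects many mRNAs from decay, and the comparison asks how the targets changed when this protein was depleted. RNA was harvested 72 h after transfection, and 96 h after transfection in PANC1. Each of the 8 groups had 3 libraries, 24 in all. No genetic change distinguished the groups of a line, and each line stands for a single tumour. The study's methods call the 3 libraries of a group biological replicates. Nothing in the labels says that they came from separately grown cultures, so that p-values measure only the spread between these libraries.

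Levels are given in FPKM (fragments per kilobase of listed gene length, scaled by library size) and differences as log2 fold changes, siI1 minus siC, of log2(FPKM + 0.5), which understates changes of genes with low levels. Between 3105215 and 4553326 reads per library stood behind the A549 values, 6421764 to 8419467 in ES2, 15572492 to 20082702 in MV3 and 6532175 to 8472851 in PANC1. IGF2BP1 was lower in all lines after siI1, with log2 fold changes between -1.83 (PANC1) and -1.32 (A549) and with all siI1 libraries below all siC libraries. In PANC1 the FPKM of all genes summed to between 526337 and 756438 in siC and to between 977547 and 1191710 in siI1, whereas those of protein-coding genes alone summed to 172587 to 192891 in siC and 187650 to 188592 in siI1. Scaling each PANC1 library to the same sum therefore shifted the median difference over the tested genes from -0.04 to -0.68 (log2) and left 95 genes higher and 8844 lower, so that directions in PANC1 are relative to the deposited scaling. Median-of-ratios scaling instead gave a PANC1 median of -0.007, with 2011 genes higher and 1883 lower. Under it 0 of 7 tested members changed sign in PANC1. The labelled tissues could be checked only in part. Epithelial markers were present in A549 and PANC1 (5 of 5 at 0.5 FPKM or more in each), but 0 of 5 lung adenocarcinoma markers reached this level in A549, 0 of 4 ovarian carcinoma markers in ES2 and 0 of 7 melanoma markers in MV3, while 2 of 4 further pancreatic duct markers did in PANC1. These markers did not single out the labelled lines, since 3 of 4 pancreatic duct markers reached it in A549 and in MV3, and 3 of 5 epithelial markers in ES2 and in MV3. Of the 4 ovarian carcinoma markers, 2 reached it in A549 and 1 each in MV3 and PANC1. Of the 7 melanoma markers, 1 reached it in each of A549, ES2 and PANC1.

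The element that NRF2 and small MAF proteins bind has a core that can be written TGACNNNGC, and the promoters of 2 members carry it close to their start sites. RefSeq promoter windows (GRCh38.p14, from 250 bases before to 50 bases after a start site) were at hand for 6 members, NQO1, GCLC, GCLM, TXNRD1, SRXN1 and AKR1C1, in 7 windows. The core was found on either strand in 3 of these 7 windows, 1 of GCLM and both of TXNRD1, against 13.3% of 35116 windows of all genes. The matches are shown because GCLM and TXNRD1 are central to the glutathione and thioredoxin results that follow. Each is written 5′ to 3′ on the strand of the gene with the core in capitals, and where the capitals begin with GC the core lies on the opposite strand.
GCLM, chr1:93909446-93909474, minus strand: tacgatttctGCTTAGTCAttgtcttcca
TXNRD1, upstream start site, chr12:104215670-104215698, plus strand: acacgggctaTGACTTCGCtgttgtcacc
TXNRD1, upstream start site, chr12:104215761-104215789, plus strand: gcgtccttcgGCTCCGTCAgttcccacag
TXNRD1, downstream start site, chr12:104286920-104286948, plus strand: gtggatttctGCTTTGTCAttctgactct
These are matches of letters in a short window, binding was not measured, and distal elements lie outside such windows.

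In control cells, A549 held the highest level of 8 of the 9 members. HMOX1, which breaks down haem, was the exception and was highest in PANC1. The contrast was most extreme for the aldo-keto reductases, which reduce reactive aldehydes and ketones. AKR1B10 was at 1223, 1102 and 1118 FPKM in the siC libraries of A549 and at 0.991, 0.658 and 0.726 in those of MV3. In ES2 and PANC1 it rested on 3 and 9 reads, summed over the 3 siC libraries. AKR1C1 was at 68.3, 63.5 and 66.0 FPKM in A549, at 0.5, 0.4 and 0.542 in MV3 and at 0.266, 0.296 and 0.174 in ES2, and in PANC1 a single read was found in the siC libraries.

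The other members were expressed in every line. NQO1, the quinone reductase, was at 417 ± 24.7 FPKM in A549, 265 ± 14.7 in MV3, 67.4 ± 1.41 in ES2 and 59.6 ± 2.42 in PANC1 (SD, n = 3 each). TXNRD1, which keeps thioredoxin reduced, varied least between lines, from 133 ± 3.43 in MV3 to 229 ± 16.0 in A549 (SD, n = 3 each), and ranked above at least 98.2% of protein-coding genes in every line. SLC7A11, the transport subunit that brings in cystine for glutathione synthesis, ranged from 3.78 ± 0.752 in PANC1 to 44.3 ± 4.17 in A549 (SD, n = 3 each). HMOX1 was at 46.8 ± 2.98 FPKM in PANC1, 17.5 ± 1.56 in A549, 5.66 ± 0.459 in MV3 and 2.0 ± 0.311 in ES2 (SD, n = 3 each). When the 4 lines were placed in the order of their siC means, the libraries of neighbouring lines did not overlap in 23 of 27 cases. The overlapping neighbours were PANC1 and ES2 for GCLC, A549 and ES2 for TXNRD1, MV3 and PANC1 for SRXN1 and PANC1 and ES2 for AKR1B10. The tables of the lines were normalized separately, and A549 was named for its NRF2 activity when the genes were chosen, so that these levels are a description without a test.

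**Figure D1:**
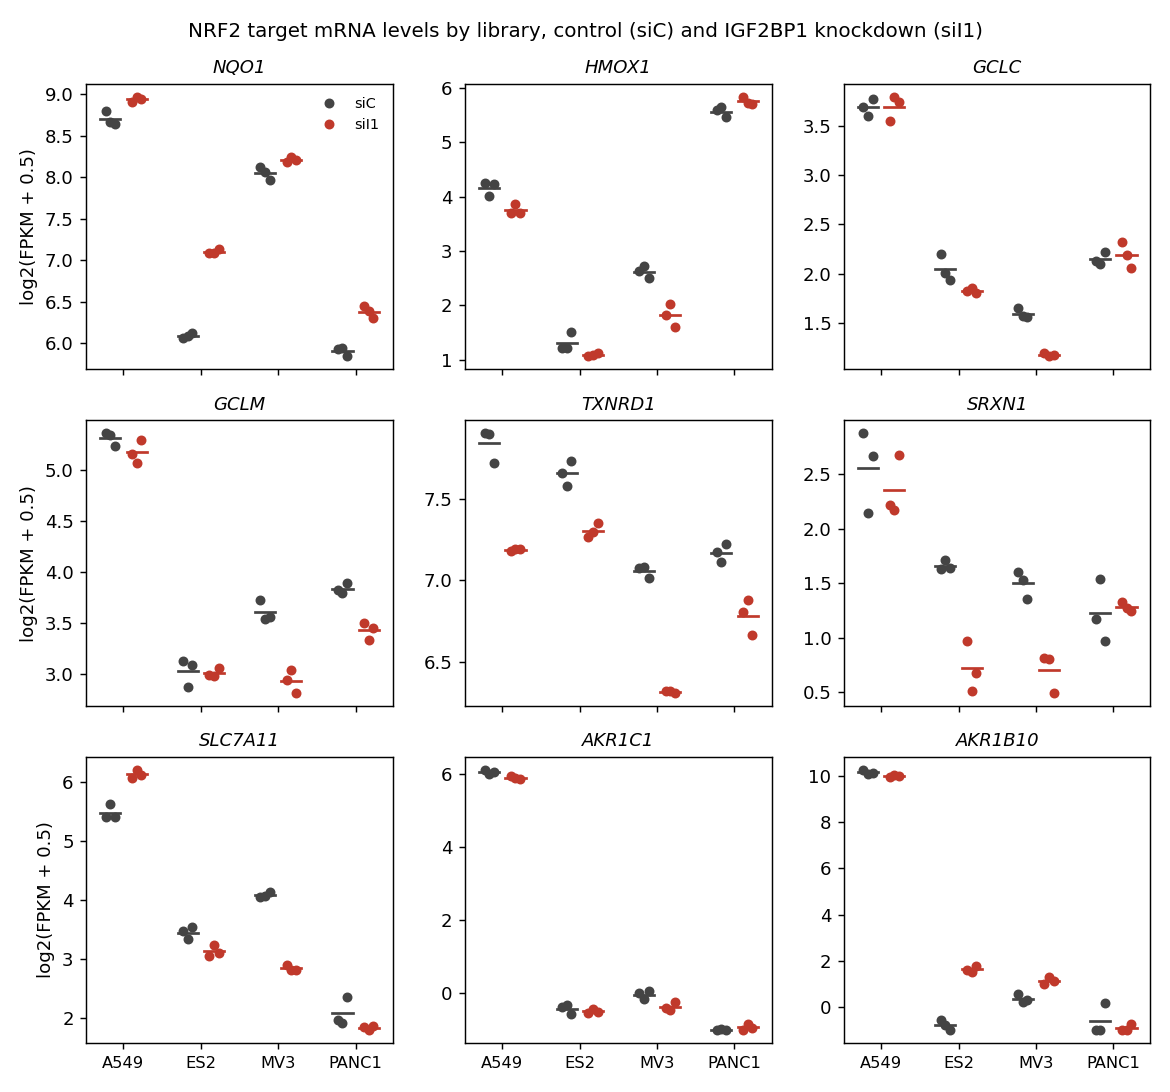
Level of each of the 9 NRF2 targets in every library, as log2(FPKM + 0.5) on the vertical axis, for siC (dark points) and siI1 (red points) libraries of the 4 lines on the horizontal axis; short lines are means of 3 libraries, and the vertical range differs between panels. A549 lies highest in 8 panels, all siI1 points of NQO1 lie above and all of TXNRD1 below the siC points of the same line, and AKR1B10 and AKR1C1 lie far lower outside A549 than in it.

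The members did not respond to IGF2BP1 depletion in 1 direction. These are bulk libraries, in which fewer cells with a transcript and less of it per cell cannot be told apart. At an adjusted p under 0.05 in limma, 2 members were higher and 2 lower of 9 tested in A549, where 5.93% of all 18411 tested genes were higher and 7.83% lower. In ES2, 2 were higher and 3 lower of 8 tested, against 10.5% higher and 13% lower of 16920 genes. AKR1B10, 1 of the 2 higher in ES2, reached the mean of 0.5 FPKM needed for a test only through its siI1 libraries. The filter thus favoured its call, which enters the counts of this paragraph. In MV3, 2 were higher and 6 lower of 8 tested, against 16.3% higher and 19.5% lower of 16380 genes. In PANC1, 1 was higher and 2 were lower of 7 tested, against 11.3% higher and 13.4% lower of 15846 genes. The median log2 fold change of the tested members was -0.15 for A549, beside -0.01 over all tested genes, -0.23 for ES2 (beside -0.02), -0.71 for MV3 (beside 0.01) and 0.04 for PANC1 (beside -0.04). The siC and siI1 libraries of a member did not overlap for 6 of 9 in A549 (34% of all tested genes), 7 of 8 in ES2 (42.1%), 8 of 8 in MV3 (50.4%) and 5 of 7 in PANC1 (43.2%). AKR1C1 in ES2, MV3 and PANC1 and AKR1B10 in PANC1 had a mean under 0.5 FPKM and were not tested, which left 32 of 36 combinations of member and line, 7 of them higher, 13 lower and 12 without a call.

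NQO1 was higher after depletion in each line on the deposited scaling, and turned negative in PANC1 with libraries scaled to the same sum. In ES2, where the rise was largest, the siC libraries were at 66.1, 67.2 and 68.9 FPKM and the siI1 libraries at 136, 135 and 140. This is a log2 fold change of 1.02 ± 0.037 (SE; limma adjusted p 7.77e-05). In PANC1 the level was 60.7, 61.2 and 56.8 FPKM in siC and 86.6, 82.9 and 78.8 in siI1, a log2 fold change of 0.47 ± 0.058 (SE; limma adjusted p 0.00322), which became -0.28 when the libraries were scaled to the same sum, against the median of -0.68 for all genes. In A549 the level was 445, 405 and 400 FPKM in siC and 479, 502 and 491 in siI1, and in MV3 278, 267 and 249 in siC and 292, 303 and 295 in siI1. The siI1 libraries thus lay above all siC libraries in every line, but in A549 and MV3 the gap was narrow. The log2 fold change was 0.24 in A549 (limma adjusted p 0.0443) and 0.16 in MV3 (limma adjusted p 0.0404). The A549 call was lost whichever of the 6 libraries was left out (adjusted p 0.053 to 0.146), and the MV3 call was lost for 5 of 6, all but siC replicate 1 (adjusted p 0.0583 to 0.124).

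TXNRD1 was lower in each line. It encodes the cytosolic thioredoxin reductase, a selenoprotein. In A549 it was at 238, 238 and 210 FPKM in siC and at 144, 145 and 146 in siI1, and in MV3 at 134, 135 and 129 in siC and 79.4, 79.4 and 78.7 in siI1. It fell by 0.65 on the log2 scale in A549 and by 0.74 in MV3. In ES2 it was at 202, 190 and 212 FPKM in siC and 153, 157 and 163 in siI1, and in PANC1 at 144, 138 and 149 in siC and 111, 117 and 101 in siI1. All siI1 libraries lay below all siC libraries of their line. The log2 fold change was -0.35 in ES2 and -0.38 in PANC1 (-1.14 when scaled to the same sum), and the limma adjusted p ranged from 7.12e-05 for MV3 to 0.0111 for PANC1. In ES2 the call was lost under scaling to the same sum (log2 fold change -0.28, adjusted p 0.0694, over a range of 6.19e-07 to 0.0694 for all alternatives).

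SRXN1, sulfiredoxin, restores overoxidized peroxiredoxins and so serves the same thiol system. It was low in all lines, at most 6.82 FPKM, and rested on 18 to 103 reads per library. In ES2 it was at 2.60, 2.77 and 2.62 FPKM in siC and 1.46, 0.925 and 1.10 in siI1, and in MV3 at 2.54, 2.39 and 2.06 in siC and 1.26, 1.24 and 0.906 in siI1. The siI1 libraries were below all siC libraries in both lines. It fell by 0.94 on the log2 scale in ES2 (limma adjusted p 0.00665) and by 0.80 in MV3 (limma adjusted p 0.00419). In A549 (log2 fold change -0.21, 95% interval -0.76 to 0.35) and PANC1 (0.06, -0.34 to 0.45, and -0.54, past the threshold, when scaled to the same sum) the libraries overlapped and no call was made on the deposited scaling.

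SLC7A11 changed in opposite directions. In A549 it was at 42.0, 49.1 and 41.7 FPKM in siC and at 66.4, 73.0 and 69.3 in siI1, a log2 fold change of 0.65 ± 0.078 (SE; limma adjusted p 0.00462). In MV3 it was at 16, 16.3 and 17 FPKM in siC and at 6.94, 6.56 and 6.53 in siI1, a log2 fold change of -1.24 ± 0.042 (SE; limma adjusted p 5.93e-05). Neither pair of groups overlapped. In ES2 it was at 10.6, 9.59 and 11.1 FPKM in siC and 7.83, 8.99 and 8.11 in siI1, a log2 fold change of -0.31 with a limma adjusted p of 0.0371. This call was lost when siC replicate 1 or 3 or siI1 replicate 1 or 3 was left out (adjusted p 0.102 to 0.114). In PANC1, at 3.40, 3.29 and 4.64 FPKM in siC and 3.09, 2.98 and 3.17 in siI1, the log2 fold change of -0.24 was not past the threshold (limma adjusted p 0.236), although the groups did not overlap, and it became -0.91, past the threshold, when scaled to the same sum.

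GCLC and GCLM, the catalytic and the modifier subunit of glutamate-cysteine ligase, which makes the first step of glutathione synthesis, passed the threshold together in MV3 alone on the deposited scaling, where both fell. GCLC was at 2.64, 2.48 and 2.45 FPKM in siC and 1.79, 1.74 and 1.76 in siI1 (log2 fold change -0.42, limma adjusted p 0.00484), and GCLM at 12.7, 11.1 and 11.3 in siC and 7.16, 7.69 and 6.52 in siI1 (-0.68, limma adjusted p 0.00114). In PANC1 GCLM fell from 13.6, 13.4 and 14.4 FPKM to 10.8, 9.60 and 10.5 (-0.41, limma adjusted p 0.00804, and -1.13 when scaled to the same sum), without overlap. GCLC there was at 3.89, 3.79 and 4.15 FPKM in siC and 4.49, 4.07 and 3.67 in siI1, with overlapping groups and a log2 fold change of 0.04 (95% interval -0.19 to 0.27), which was -0.64, past the threshold, when the libraries were scaled to the same sum. In A549 the log2 fold change was 0.01 for GCLC (95% interval -0.21 to 0.22) and -0.14 for GCLM (-0.32 to 0.04). In ES2 it was -0.22 for GCLC (-0.45 to 0.01) and -0.02 for GCLM (-0.22 to 0.18). Neither subunit passed the threshold in these lines.

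HMOX1 was lower in A549 and MV3. In A549 it was at 18.5, 15.7 and 18.3 FPKM in siC and 12.5, 14.0 and 12.4 in siI1, a log2 fold change of -0.41 with a limma adjusted p of 0.0297. This call was lost when any library other than siC replicate 2 was left out (adjusted p 0.0533 to 0.105). In MV3 it was at 5.69, 6.10 and 5.18 FPKM in siC and 3.04, 3.59 and 2.54 in siI1, a log2 fold change of -0.80 with a limma adjusted p of 0.00325. In PANC1, the line with the highest level, it was at 47.6, 49.3 and 43.5 FPKM in siC and 56.7, 52.2 and 51.4 in siI1. All siI1 libraries were above, but the log2 fold change of 0.19 (95% interval 0.02 to 0.35) was not past the threshold (limma adjusted p 0.0936), and it was -0.56, past the threshold, under scaling to the same sum. In ES2 the log2 fold change was -0.23 (95% interval -0.54 to 0.08), with 28 to 41 reads per library.

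The aldo-keto reductases separated by line. In A549 AKR1B10 was at 1223, 1102 and 1118 FPKM in siC and 992, 1069 and 1026 in siI1, and AKR1C1 at 68.3, 63.5 and 66.0 in siC and 61.5, 59.2 and 57.3 in siI1. The siI1 libraries lay below all siC libraries for both, but the log2 fold changes of -0.16 for AKR1B10 (limma adjusted p 0.185) and -0.15 for AKR1C1 (limma adjusted p 0.105) were not past the threshold. With voom weights on the recovered reads both were called lower, at an adjusted p of 0.000985 (range over alternatives 0.000985 to 0.554) and 0.0271 (0.0271 to 0.233).

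AKR1B10 was higher in ES2 and MV3, where it was low. In ES2 there were 2, 1 and 0 reads in siC and 34, 30 and 43 in siI1, which is 0.179, 0.0874 and 0 FPKM against 2.57, 2.39 and 2.92. The ratio of reads, scaled for library size, was 31.0 (95% exact binomial interval 10.3 to 153, which covers counting error only). The fitted log2 fold change of 2.42 (limma adjusted p 0.000722) depends on the added constant, and lay between 1.74 and 4.70 over the alternatives. The gene reached the minimum level for a test in ES2 only through the siI1 libraries, so that its call there was favoured by the filter. The other member called higher in ES2 was NQO1. In MV3 there were 26, 18 and 20 reads in siC and 52, 70 and 57 in siI1, or 0.991, 0.658 and 0.726 FPKM against 1.49, 1.98 and 1.66, a log2 fold change of 0.78 ± 0.148 (SE; limma adjusted p 0.00836). Even after these rises the level was far under that of A549. AKR1C1 in MV3, which was below the minimum level for a test, had 66, 55 and 75 reads in siC and 46, 40 and 59 in siI1 (0.5, 0.4 and 0.542 FPKM against 0.261, 0.225 and 0.343). Its coding sequence is identical to that of AKR1C2 at 98.0% of 969 bases and to that of AKR1C3 at 91.8%, so that reads could be shared between these neighbours on chromosome 10 and the counts of each are uncertain.

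**Figure D2:**
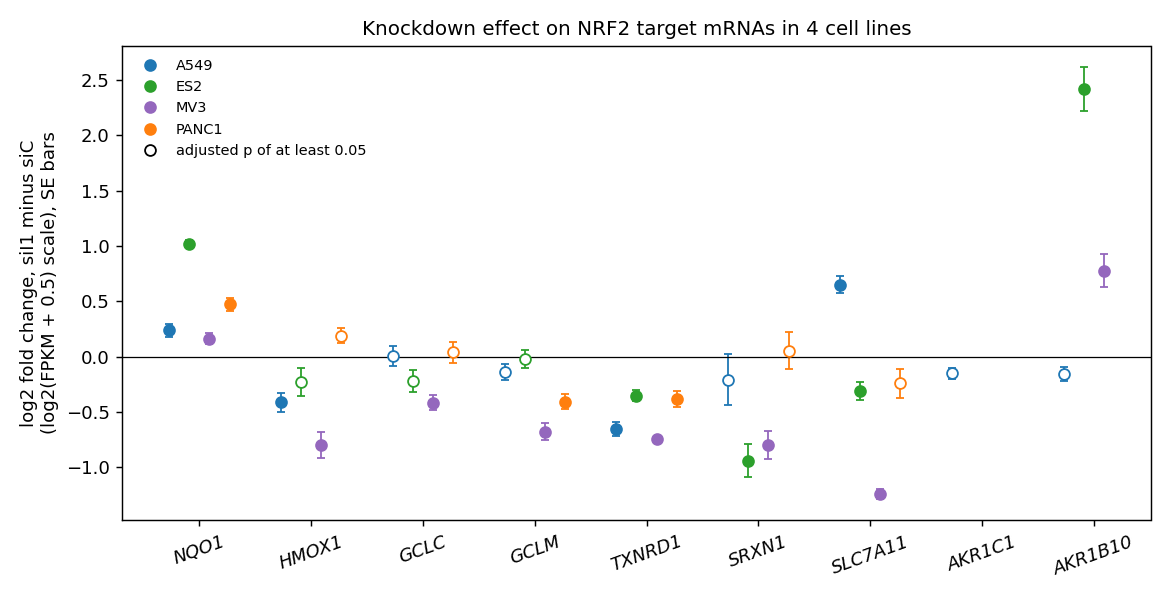
Log2 fold change after IGF2BP1 depletion (siI1 minus siC, log2(FPKM + 0.5) scale, vertical axis) for each tested member (horizontal axis) in the 4 lines; bars are standard errors of limma fits on 3 against 3 libraries, filled points have an adjusted p under 0.05 and open points do not. NQO1 lies above 0 and TXNRD1 below 0 in every line, SLC7A11 runs from -1.24 in MV3 to 0.65 in A549, and in PANC1 NQO1, HMOX1, GCLC and SRXN1 would fall below 0 with libraries scaled to the same sum.

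Whether a response differed between lines was tested in a single fit of all 24 libraries, over the 12816 genes with at least 0.5 FPKM in each line. The effect differed between lines for all 7 members tested, at adjusted p-values from 3.68e-08 (SLC7A11) to 0.00917 (SRXN1), where 45% of all genes did so. The call was lost for SRXN1 under scaling to the same sum (adjusted p 0.0615, over a range of 0.00177 to 0.0615 for all alternatives), and for GCLC without siI1 replicate 2 of each line (0.0593) and by Cochran's Q (0.0595, over a range of 0.000421 to 0.0595). SLC7A11 spanned the widest range, 1.89 on the log2 scale between A549 and MV3, and on the deposited scaling SRXN1 (1.00 between PANC1 and ES2) and HMOX1 (0.99 between PANC1 and MV3) came next with nearly equal spans. TXNRD1 spanned 0.39 between ES2 and MV3, and GCLC 0.46 between PANC1 and MV3. PANC1 was harvested at 96 h and the other lines at 72 h, and the fall of IGF2BP1 also differed between lines (F test, limma adjusted p 9.77e-05). Line, harvest time and extent of depletion therefore cannot be told apart in these differences. Averaged over the 4 lines, 1 member was higher (background 20.5%) and 6 were lower (background 28.1%). The SEs of such means cover the spread between libraries within groups and leave out that of the effects between lines. The mean log2 fold change was 0.47 ± 0.024 (SE) for NQO1 and -0.53 ± 0.027 (SE) for TXNRD1. It was -0.47 for SRXN1, -0.31 for HMOX1 and for GCLM, -0.29 for SLC7A11 and -0.15 for GCLC. For SLC7A11 this mean covers effects of opposite sign. No mean changed sign under another scaling.

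Of the 9 regulators of the pathway, 2 were higher and 1 lower in A549, 4 were lower in ES2, 6 were lower in MV3 and 3 were higher in PANC1 (all 3 turned negative with libraries scaled to the same sum), with medians of -0.01, -0.20, -0.31 and -0.06. Over all tested genes the shares called higher and lower were 5.93% and 7.83% in A549, 10.5% and 13% in ES2, 16.3% and 19.5% in MV3 and 11.3% and 13.4% in PANC1, and the same shares are the background of the lists that follow. NFE2L2 itself was at 16.1 ± 0.395 FPKM after siI1 against 17.4 ± 0.363 with siC in MV3 (SD, n = 3 each), and the difference of -0.12 (log2) had a limma adjusted p of 0.0387, a call that was lost under scaling to the same sum (adjusted p 0.125). Its log2 fold change was not past the threshold elsewhere on the deposited scaling, at 0.08 (A549), 0.18 (ES2) and -0.30 (PANC1), and in PANC1 it became -1.03, past the threshold, under the same sum. NRF2 is controlled mainly through its protein, which was not measured. KEAP1 was lower in A549 (-0.33, limma adjusted p 0.0197, and 0.0589 under the same sum) and in MV3 (-0.31, limma adjusted p 0.00642). BACH1 was higher in A549 (0.35, limma adjusted p 0.0236) and in PANC1 (0.33, limma adjusted p 0.0324, and -0.36 when scaled to the same sum).

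SQSTM1, whose product p62 draws KEAP1 into autophagosomes and which is itself an NRF2 target, changed in both directions. It was higher in A549 (log2 fold change 0.25, a call that was lost under the same sum, with 0.22) and PANC1 (0.33, but -0.42 when scaled to the same sum) and lower in ES2 (-0.33) and MV3 (-0.84), and its effect differed between lines (F test, limma adjusted p 1.14e-08). The small MAF genes MAFF, MAFG and MAFK were all lower in ES2 and MV3, the largest fall being that of MAFF in ES2, at 1.94 ± 0.142 FPKM after siI1 against 4.94 ± 0.355 with siC (SD, n = 3 each). None of them passed the threshold in A549 or, on the deposited scaling, in PANC1, where MAFG (-0.98) and MAFK (-0.65) did under the same sum.

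Of 30 further NRF2 targets, 6 were higher and 5 lower of 29 tested in A549, 7 higher and 3 lower of 24 in ES2, 2 higher and 13 lower of 24 in MV3, and 5 higher and 2 lower of 23 in PANC1. The 3 lower in ES2 are close to the 13% of all genes there, whereas the 13 of 24 lower in MV3 stand beside 19.5%. Their medians were 0.07, 0.03, -0.23 and 0.06. GSTM3, a glutathione transferase, was higher in ES2 (log2 fold change 0.63), MV3 (0.39) and PANC1 (0.50, but -0.24 when scaled to the same sum). The conjugate exporter ABCC3 was higher in ES2, at 6.79 ± 0.340 FPKM after siI1 against 1.54 ± 0.273 with siC (SD, n = 3 each), in MV3 (0.65) and in A549 (0.38), and was lower in PANC1 (-0.54). Among genes of the pentose phosphate pathway, PGD (-0.57), which yields NADPH, and TALDO1 (-0.37) and TKT (-0.18), which do not, were lower in MV3. In PANC1 TKT (0.65) and PGD (0.30) were higher, and were at -0.0952 and -0.45 when scaled to the same sum, and in ES2 TKT (0.25) was higher and TALDO1 (-0.41) lower. These 3 genes did not pass the threshold in A549.

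In A549 the paralogs AKR1C2 and AKR1C3 were both lower. AKR1C2 went from 304 ± 5.49 to 255 ± 1.42 FPKM (SD, n = 3 each; log2 fold change -0.25, limma adjusted p 0.0108) and AKR1C3 from 329 ± 16.3 to 278 ± 5.79 (SD, n = 3 each; -0.24, limma adjusted p 0.0294). Larger falls in A549, named after their values were seen, were those of the glutathione peroxidase GPX2, from 158, 125 and 123 FPKM to 44.6, 41.1 and 47.6 (-1.59, limma adjusted p 0.00106), and of the aldehyde dehydrogenase ALDH3A1, from 388, 344 and 370 FPKM to 229, 244 and 222 (-0.66, limma adjusted p 0.00226). Both were below 0.5 FPKM on average in the other lines. The 6 genes of the same list called higher in A549 were MGST1 (0.57), FTH1 (0.53), ABCC3 (0.38), FTL (0.32), ABCC1 (0.25) and ABCC2 (0.17). The calls of ABCC1 and ABCC2 were lost under scaling to the same sum.

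ATF4, the transcription factor of the amino acid response, also drives SLC7A11, and 6 genes of that response were therefore counted. In ES2 5 of 6 were lower and in MV3 4 of 6, against 2 lower and 1 higher of 5 in A549 and 3 higher of 6 in PANC1. Of all tested genes, 13% were lower in ES2, 19.5% in MV3 and 7.83% in A549, and 5.93% were higher in A549 and 11.3% in PANC1. ATF4 itself was lower in A549 (log2 fold change -0.24), ES2 (-0.35) and MV3 (-0.61) and at -0.02 in PANC1. SESN2 was lower in the same lines (-0.94, -1.25 and -0.46) and at -0.20 in PANC1, where neither was past the threshold and both were under the same sum (-0.77 and -0.90). These genes share libraries with SLC7A11, and their part in its change was not tested.

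**Figure D3:**
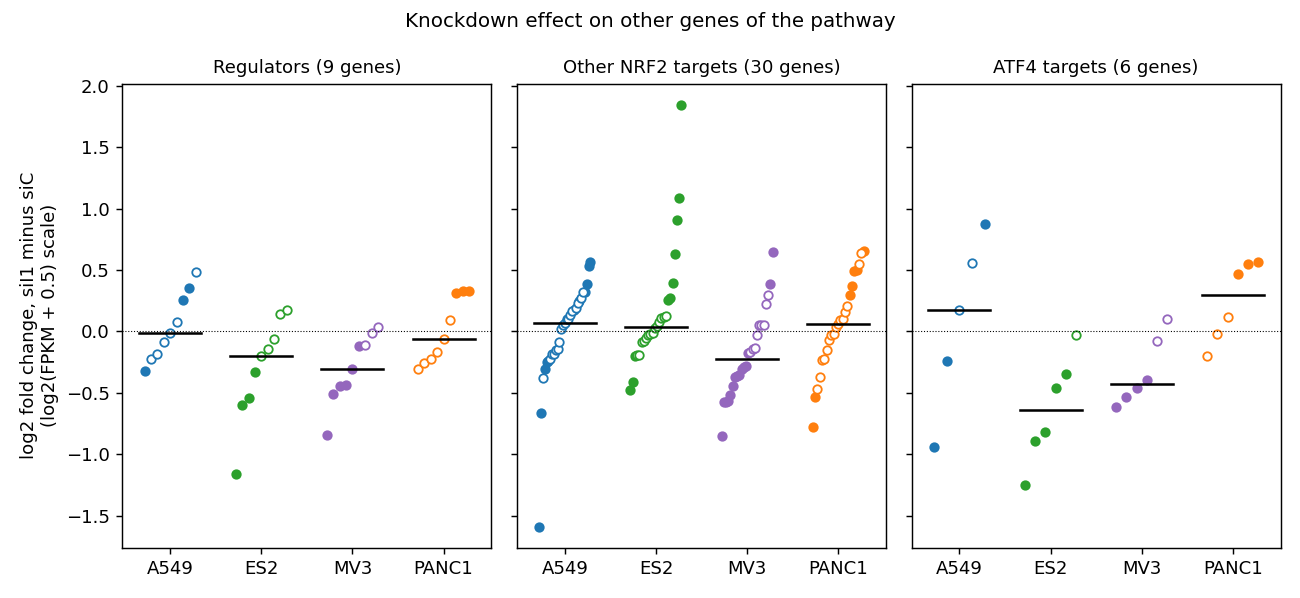
Log2 fold change (siI1 minus siC, log2(FPKM + 0.5) scale, vertical axis) of each tested gene of 3 lists, sorted within each line (horizontal axis): 9 NRF2 regulators, 30 further NRF2 targets and 6 genes of the ATF4 response, ATF4 included. Filled points have a limma adjusted p under 0.05, open points do not, and bars are medians; in MV3 the filled points lie mostly below 0 in each list, and every filled point above 0 in PANC1 falls below 0 with libraries scaled to the same sum.

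Under scaling to the same sum, all genes called higher in PANC1 in these lists changed sign, 1 member, 3 regulators, 5 further targets and 3 ATF4 genes, whereas no gene of these lists that was called in another line did so under either other scaling. Under median-of-ratios scaling no called gene of these lists changed sign in PANC1 either. Cell state markers also moved. The summed level of the 5 epithelial markers was 1029 to 1138 FPKM in siC and 448 to 476 in siI1 in A549, and 795 to 1085 in siC and 1253 to 1335 in siI1 in PANC1. It was 151 to 167 in siC and 194 to 221 in siI1 in ES2, and 22.7 to 24.2 and 20.6 to 23.7 in MV3. The sums mask single markers. In PANC1 CDH1 (log2 fold change -1.59) and EPCAM (-0.76) were called lower and KRT8 higher, and KRT7 and KRT18 had no call. The PANC1 sums are on the deposited scaling and were not rescaled. The 3 fibroblast markers summed to 2.2 to 3.71 FPKM in siC and 0.854 to 1.3 in siI1 in A549, to 0.117 to 0.171 and 0.796 to 1.09 in ES2, to 0.793 to 0.95 and 3.15 to 3.3 in MV3 and to at most 0.256 in PANC1. PDGFRB was higher in ES2 and MV3 and LUM lower in A549. In ES2 PDGFRB was at a mean of 0.147 FPKM in siC and 0.932 in siI1. It reached the minimum level for a test there only through the siI1 libraries, so that this call was favoured by the filter. The part of these markers in the changes of the NRF2 targets was not tested. Blood cell markers summed to at most 0.107 FPKM in any library.

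The members differ widely in the length of their 3'UTRs. The longest annotated 3'UTR, the part of the mRNA where IGF2BP1 is known to act on many of its targets, ranged from 326 nt in AKR1B10 and 629 nt in HMOX1 to 5544 nt in AKR1C1 and 7862 nt in SLC7A11. NQO1, which rose, has 1578 nt and TXNRD1, which fell, 1889 nt. The median of the 9 was 1889 nt, beside 1503 nt for 12953 protein-coding genes tested in at least 1 line. In hg38 (GENCODE 44), NQO1 lies on chromosome 16 (69706996 to 69726668, minus strand), TXNRD1 on chromosome 12 (104215779 to 104350307, plus strand), SLC7A11 on chromosome 4 (138164097 to 138242349, minus strand) and AKR1B10 on chromosome 7 (134527567 to 134541412, plus strand).

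As a last description, the mean profile of the 9 members over the 8 groups was set beside other protein-coding genes. Among 3792 genes whose levels varied enough between groups, the profiles most like it were those of ZC3H12A (Pearson r 0.997 over the 8 group means), RIPPLY1 (0.997), CYP24A1 (0.996), XAGE1A (0.996) and TIMP4 (0.995). All have their highest control level in A549, 22.7 FPKM for ZC3H12A and 407 for CYP24A1, so that the likeness rests mostly on the contrast of A549 with the other lines. Of the members, AKR1C1 (0.992) and AKR1B10 (0.975) followed the mean most closely, and TXNRD1 (0.447) and HMOX1 (0.266) least. Each member is itself part of this mean, and AKR1C1 and AKR1B10, with the largest contrasts between lines, shape it most. Their place at the top was thus largely set in advance.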

How the data were processed

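Total RNA libraries of 8 groups with 3 replicates each were grouped by their labels. Per the submitters' processing notes and the methods, the authors used cutadapt 1.14, HISAT2 2.1.0, SAMtools 1.5, featureCounts 1.5.3 and edgeR 3.30.3 with hg38. The authors deposited 1 table per line with FPKM per library; this unit was inferred, because value times listed length gave whole reads (tolerance 0.01) for 100% of values. Their log2 fold changes, p-values and FDR per gene were not used.

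Genes whose mean over a line's 6 libraries reached 0.5 FPKM were tested with limma 3.58.1 (R 4.3.3; intensity trend, two-sided, Benjamini-Hochberg adjustment over all tested genes, threshold 0.05) on log2(FPKM + 0.5), without covariates, separately per line. An F test over 24 libraries compared lines. Alternatives were pseudocounts of 0.1 and 1, filters, 2 scalings, voom, a replicate block, Cochran's Q and leaving out libraries.

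On simulated data, per line, 37.3% to 70.1% of 2-fold changes were recovered (62.5% to 88.5% with at least 100 reads, where 1.5-fold changes reached 4.55% to 17.5%). False calls were 29 of 91 in A549, 16 of 109 in ES2, 6 of 113 in MV3 and 14 of 85 in PANC1, at most 1 per line in genes with 20 reads or more. Replicates differed beyond sampling noise (chi-square per gene 1.54 to 15.1 over 24 pairs). The simulation used the same fixed spread between replicates for all genes and lines, so that its rates may not carry over to these libraries.

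The members, lists and alternatives were chosen with earlier results of these data known. All members were named, as were NFE2L2, KEAP1, BACH1, AKR1C2, AKR1C3, list genes changed alike in at least 3 lines and the 5 most similar profiles; 1 gene of the lists is not reported here. Coordinates are from GENCODE 44, promoters from RefSeq (GRCh38.p14). Figures were drawn with matplotlib 3.10.9.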

Additional observations from a re-analysis of the deposited data

Results flagged for a closer look

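The effect of IGF2BP1 depletion differed between the 4 lines, by the F test over 24 libraries, for each of the 7 members expressed in all lines. The limma adjusted p of this test was 3.68e-08 for SLC7A11, 6.44e-08 for NQO1, 0.00017 for HMOX1, 0.000317 for GCLM, 0.000648 for TXNRD1, 0.00757 for GCLC and 0.00917 for SRXN1. On the deposited scaling the lines differed in size and not in direction for NQO1 and TXNRD1, but NQO1 in PANC1 turned to -0.28 with libraries scaled to the same sum. For SLC7A11 the lines with a call differed in direction, higher in 3 of 3 siI1 libraries of A549 and lower in 3 of 3 of ES2 and of MV3. Since 45% of 12816 genes differed between lines, such a difference was common in these libraries. Line, harvest time (96 h in PANC1, 72 h elsewhere) and extent of IGF2BP1 depletion cannot be told apart in it.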

How the results depend on the processing

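Scaling PANC1 libraries to the same sum had the largest effect: 0 members were then higher and 6 lower, and the log2 fold change turned to -0.28 for NQO1, -0.56 for HMOX1, -0.64 for GCLC and -0.54 for SRXN1, and SLC7A11 passed the threshold. Of all 15846 tested PANC1 genes, 95 were then higher and 8844 lower, with a median log2 fold change of -0.68, so that the member counts lie within a shift of all genes. The same scaling left 1 member higher in A549, turned GCLC there to -0.0244, left 1 member lower in ES2 and turned GCLM there to 0.0442; over all ES2 genes it gave 1779 higher and 1419 lower, beside 1772 and 2201. Median-of-ratios scaling gave 0.00065 for GCLM in ES2. Without a filter 1 member was higher in A549 and 1 in MV3; with a minimum of 2 FPKM, which removes AKR1B10 from both tests, 1 was higher in ES2 and 1 in MV3. Voom gave 4 lower members in A549. Replicate numbers did not pair the libraries (correlations -0.153 to 0.0824 between same-numbered libraries); a replicate block gave 1 higher and 1 lower member in A549 and 1 higher in MV3. Over all A549 genes, where the main test called 1092 higher and 1441 lower, the block gave 379 and 622, voom 1837 and 2339, and a spread trended on reads (chosen after seeing the data) 1656 and 2186; in ES2, with 1772 and 2201, the block gave 1169 and 1443.

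With 1 library left out, 502 to 726 genes were higher and 752 to 993 lower in A549, whichever it was; in ES2 1139 were higher without siI1 replicate 3, and in PANC1, beside 1796 higher, 1014 were without siC replicate 1 and 1107, 1129 and 1152 without siI1 replicate 1, 2 and 3. Higher members numbered 1 in A549 (1 to 1) and 1 to 2 in MV3, lower members 1 to 2 in A549. Signs turned only for log2 fold changes near 0 without a call: GCLC in A549 (-0.0415 to 0.0818), GCLM in ES2 (-0.0997 to 0.0273), and in PANC1 SRXN1 (-0.0725 to 0.21) and GCLC (-0.0259 to 0.105). The difference between lines was lost for SRXN1 under the same sum (adjusted p 0.0615) and for GCLC without siI1 replicate 2 of each line (0.0593) and by Cochran's Q (0.0595). Where not stated, the cause was not tested. A549 had the fewest reads, and the part of depth in the members without a call there was not tested.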

Other observations

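Members under the minimum level were also fitted without a filter. AKR1C1 in MV3 had 196 reads in the siC and 145 in the siI1 libraries, a ratio of 0.574 scaled for library size (95% exact binomial interval 0.46 to 0.715, counting error only), and a log2 fold change of -0.34 with a limma adjusted p of 0.14 over 32314 genes. AKR1C1 in ES2 had 43 reads in each group. AKR1B10 in PANC1 had 9 reads in siC, all in replicate 3, and 1 in siI1, and no difference was detectable at this depth.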
